A study of Mus musculus with 2 samples.

Results

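The genes described here are the 9 that make, carry and sense retinoic acid among a fixed set of symbols: the retinaldehyde dehydrogenases Aldh1a1, Aldh1a2 and Aldh1a3, the nuclear receptors Rara, Rarb, Rarg and Rxra, and the cellular retinoic acid binding proteins Crabp1 and Crabp2. They were found by matching the gene identifiers of the deposited gene tables, without the version suffix, to these symbols, and each matched 1 of the 43346 gene rows. The samples were whole hearts of mouse embryos of the B6NCrl strain at embryonic day 14.5 (E14.5), with no treatment and no altered allele named in the labels. There was 1 group of 2 libraries, biological replicates 1 and 2, each made from the total RNA of a single heart, with an RNA input of 10 ng and added spike-in RNAs. The hearts were collected on day 15 (replicate 1) and day 17 (replicate 2) of the same July. Embryo and collection day therefore cannot be told apart, and the labels give the sex of each as pooled male and female although each sample is 1 heart.

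Retinoic acid is made from vitamin A in a short chain of reactions. Retinol is oxidised to retinaldehyde by alcohol and retinol dehydrogenases, retinaldehyde is oxidised irreversibly to retinoic acid by the Aldh1a enzymes, and enzymes of the Cyp26 family break retinoic acid down. Inside the cell the Crabp proteins bind it, and in the nucleus a retinoic acid receptor (RAR), paired with a retinoid X receptor (RXR), binds direct repeats of a short core sequence in DNA and changes transcription when the ligand arrives. In the fetal heart the epicardium, the outer cell layer, is a known site of Aldh1a2, and loss of Aldh1a2 or of Rxra in mice is known to impair growth of the ventricular wall.

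Replicates 1 and 2 held 2.85e+07 and 2.90e+07 expected counts (reads assigned to genes by estimation), of which 2.75e+07 and 2.79e+07 lay on gene rows. For a transcript of 1 kb of effective length, 1 count was worth 0.0478 TPM (transcripts per 1e+06, a level per length that allows genes to be compared) in replicate 1 and 0.0475 TPM in replicate 2. All 6 cardiomyocyte markers of a fixed list were at 1 TPM or more in both libraries, and so were all 11 epicardial and all 6 endothelial ones. None of 6 lung and airway epithelial markers was, and 3 of 7 liver markers were. Haemoglobin genes took 2.33% of the gene counts in replicate 1 and 1.31% in replicate 2. These are bulk samples, so fewer cells of a type and less RNA per cell cannot be told apart. With 2 libraries of 1 group no condition was compared and no p-value is given, since an exact sign test over 2 libraries cannot go below 0.5.

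Of the 9 genes, 8 were at 1 TPM or more in both libraries. Over all gene rows the share at that level was 31.5%, and over protein coding genes it was 56.8%. The exception was Aldh1a3, at 0.52 TPM in replicate 1 and 1.00 in replicate 2. In mean TPM the genes ran from Rara, through Aldh1a2, Rarb, Crabp1, Rarg, Rxra, Aldh1a1 and Crabp2, to Aldh1a3. Rara lay above 65.2% of the genes detected in both libraries, Aldh1a2 above 60.9%, Rarb above 52.8% and Crabp2 above 4.60%, so the set spread from the lowest levels to somewhat above the middle of the expressed genes.

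Neighbours in this order were called apart when both libraries gave the same sign and their mean log2 TPM ratio exceeded 0.46 (1.37-fold). That limit is the 95th percentile of the absolute log2 TPM ratio between the libraries over the genes that averaged 100 counts or more. By this rule 4 of the neighbouring pairs were apart. Rarb was above Crabp1 by a log2 TPM ratio of 1.03 ± 0.71 (SD, n = 2), Rxra was above Aldh1a1 by 1.01 ± 0.09, and Crabp2 was above Aldh1a3 by 1.10 ± 0.25. Aldh1a1 was above Crabp2 by 0.46 ± 0.59, at the limit, with 0.88 in replicate 1 and 0.05 in replicate 2. Rara and Aldh1a2, Aldh1a2 and Rarb, Crabp1 and Rarg, and Rarg and Rxra did not differ beyond the limit or changed order between the libraries. Crabp1 lay below Rarg in replicate 1 (log2 ratio -0.12) and above it in replicate 2 (log2 ratio 1.03).

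**Figure D1:**
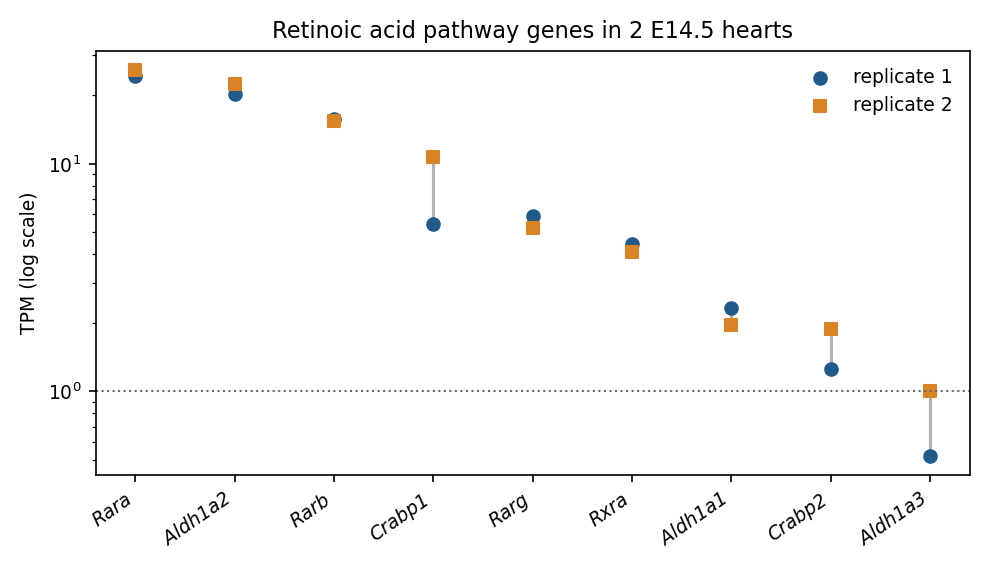
TPM on a log axis (vertical) of the 9 genes (horizontal, in order of mean TPM) in replicate 1 (circles) and replicate 2 (squares), with a line joining the 2 hearts and a dotted line at 1 TPM. The points of Rara, Aldh1a2 and Rarb lie highest and close together, and those of Crabp1 and Aldh1a3 are the farthest apart between hearts.

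Among the enzymes that make retinoic acid, Aldh1a2 gave most of the RNA. Aldh1a2 (ENSMUSG00000013584.5; GRCm38 chr9:71215789-71296243, plus strand) is the main retinaldehyde dehydrogenase of the early embryo. It measured 20.29 TPM in replicate 1 and 22.42 in replicate 2, a mean of 21.4 ± 1.51 TPM (SD, n = 2), from 919 and 1021 counts. The hearts were close: the ratio of replicate 2 to replicate 1 on scaled counts was 1.07-fold, with an exact 95% Clopper-Pearson interval of 0.975 to 1.17. This interval and those that follow take in counting error alone; PCR copies mean that reads are not separate molecules.

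Aldh1a1 (ENSMUSG00000053279.6; chr19:20492715-20643465, plus strand), a retinaldehyde dehydrogenase also known from the adult liver and eye, measured 2.32 TPM in replicate 1 and 1.95 in replicate 2. Its mean was 2.13 ± 0.262 TPM (SD, n = 2), from 95 and 80 counts. The level of Aldh1a2 was 8.75 times that of Aldh1a1 in replicate 1 and 11.5 times in replicate 2, a geometric mean of 10.0-fold, far beyond the limit of 1.37-fold. Low in both hearts, Aldh1a1 gave only 10.0% and 7.69% of the summed TPM of the Aldh1a genes.

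Aldh1a3 (ENSMUSG00000015134.10; chr7:66390890-66427517, minus strand), the family member known from the developing eye and nasal region, was lowest of all. It had 29 counts in replicate 1 and 36 in replicate 2, a scaled ratio of 1.19-fold (0.711 to 2.02), which does not differ beyond counting error. Its TPM nevertheless was 1.92 times as high in replicate 2, because the quantification gave the gene an effective length of 2644 nt in replicate 1 and 1712 nt in replicate 2. The longest transcript, Aldh1a3-201, held 64.1% of the gene's TPM in replicate 1 and 29.0% in replicate 2, and the remainder lay on the shorter Aldh1a3-203 and on Aldh1a3-202, which retains an intron. On the mean effective length the levels were 0.636 and 0.786 TPM. The 2 hearts are thus close in reads and apart only in how few reads were divided among transcripts.

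By share of the family's TPM, Aldh1a2 held 87.7% in replicate 1 and 88.4% in replicate 2 (88.0% ± 0.460, SD, n = 2). The 3 genes together summed to 23.1 and 25.4 TPM. Aldh1a2 was set beside 2 epicardial transcription factors. Wt1 was at 18.10 and 18.40 TPM, and the level of Aldh1a2 was 1.17 times that of Wt1, within the limit of 1.37-fold. Tcf21, found in epicardial cells and the fibroblasts they give rise to, was at 50.81 and 56.13 TPM, and Aldh1a2 stood at 0.399 of its level in each library.

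Among the receptors, Rara was highest and Rarg lowest of the RAR genes, in the same order in both hearts. Rara (ENSMUSG00000037992.12; chr11:98927818-98974942, plus strand), the broadly expressed RAR gene, measured 24.40 TPM in replicate 1 and 25.85 in replicate 2. The mean was 25.1 ± 1.03 TPM (SD, n = 2), from 1341 and 1446 counts, and the scaled ratio between the hearts was 1.04-fold (0.961 to 1.12). The hearts did not differ beyond counting error.

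Rarb (ENSMUSG00000017491.8; chr14:16430839-16819156, minus strand) encodes the RAR that is itself a textbook target of retinoic acid. It measured 15.68 TPM in replicate 1 and 15.50 in replicate 2, a mean of 15.6 ± 0.127 TPM (SD, n = 2), from 963 and 957 counts. The scaled ratio was 0.955-fold (0.872 to 1.05). Of the 9 genes it had the smallest SD in TPM. A caution concerns its neighbour: in GENCODE M21, 1793 of the 3108 nt of exon of its transcript in the tables overlap exons of Top2b, a DNA topoisomerase gene on the opposite strand at 47.6 and 49.0 TPM. Use of strand in the counting is not given in the sources used here, so without it reads of Rarb and Top2b could not be told apart there. The deposited posterior SD of the count was 0 for both genes in both libraries, meaning that the quantification divided no read between them.

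Rarg (ENSMUSG00000001288.10; chr15:102234938-102257517, minus strand), known from skeletal precursors and skin, measured 5.93 TPM in replicate 1 and 5.25 in replicate 2. Its mean was 5.59 ± 0.481 TPM (SD, n = 2), from 311 and 285 counts, with a scaled ratio of 0.881-fold (0.747 to 1.04). The Rarg level is less certain than its counts make it look. The deposited credibility bounds ran from 5.71 to 18.3 TPM in replicate 1 and from 5.07 to 17.5 TPM in replicate 2. The wide upper bounds go with the 111 nt transcript Rarg-206, whose effective length is 12 nt. It had 0 counts but posterior mean levels of 3.88 and 3.86 TPM.

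Rxra (ENSMUSG00000015846.10; chr2:27676440-27762957, plus strand), the RXR gene whose loss is known to thin the fetal ventricular wall, measured 4.46 TPM in replicate 1 and 4.09 in replicate 2. The mean was 4.28 ± 0.262 TPM (SD, n = 2), from 449 and 413 counts, with a scaled ratio of 0.884-fold (0.771 to 1.01). On TPM it was not the leading RXR gene of these hearts. Rxrb, a partner receptor outside the set, was at 10.87 and 12.08 TPM, which is 2.44 and 2.95 times the level of Rxra, and Rxrg was at 0.97 and 1.12 TPM.

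The summed level of Rara, Rarb and Rarg was 46.0 TPM in replicate 1 and 46.6 in replicate 2 (46.3 ± 0.417, SD, n = 2). Of this sum Rara held 53.0% and 55.5%, Rarb 34.1% and 33.3%, and Rarg 12.9% and 11.3%. Rara was 1.61 times the level of Rarb and 4.50 times that of Rarg, and Rarb was 2.79 times that of Rarg, all beyond the limit of 1.37-fold in mean ratio and of the same sign in both libraries. The RXR genes summed to 16.3 and 17.3 TPM, so RAR RNA exceeded RXR RNA by a ratio of 2.82 in replicate 1 and 2.70 in replicate 2. Within the RXR sum Rxra held 27.4% and 23.7% of TPM. By counts, which are not corrected for length, the share of Rxra was 43.3%, since the transcript counted for it is long (4905 nt).

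**Figure D2:**
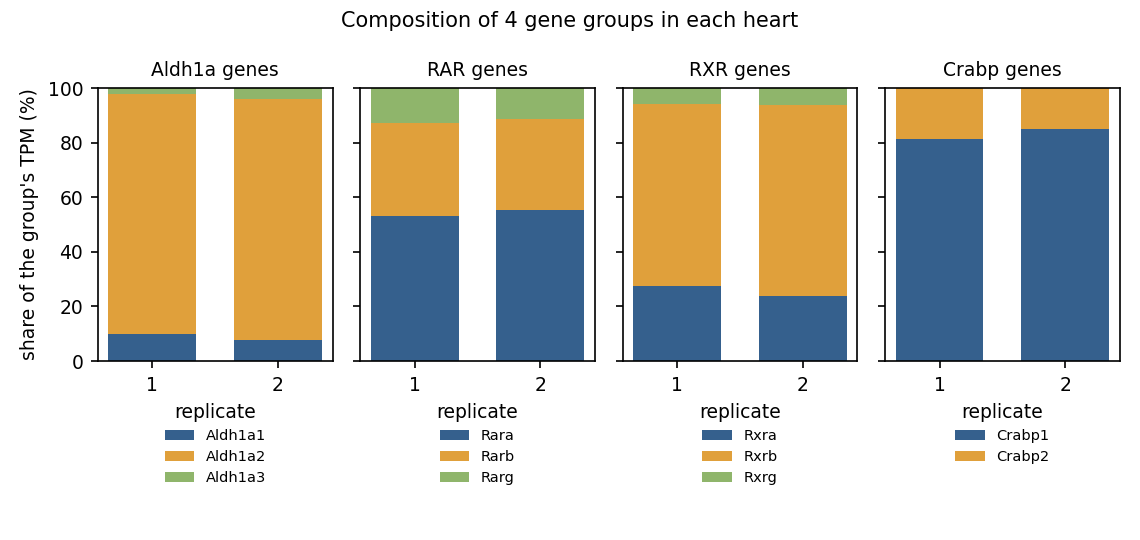
Share of the summed TPM (vertical, percent) held by each gene of the Aldh1a, RAR, RXR and Crabp groups in replicates 1 and 2 (horizontal), as stacked bars from 0. Aldh1a2 fills 87.7% and 88.4% of its group, Rara 53.0% and 55.5% of the RAR group and Crabp1 81.2% and 85.0% of the Crabp group.

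The receptors have transcripts from separate starts, which encode proteins with different first segments, and the transcript tables divide the reads among them. Rara had 7 annotated transcripts, of which 5 were above 0. Rara-204 held 35.6% of the gene's TPM in replicate 1 and 36.8% in replicate 2, Rara-203 held 26.6% and 19.8%, and Rara-202, which begins at a downstream start (position 98960412), held 22.8% and 18.0%. Rara-207 held 13.0% and 25.4%, from 201.61 and 419.32 counts whose deposited posterior SDs were 62.5 and 72.2 counts. These transcripts share most of their exons, and the split between them moved while the total of Rara hardly did.

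Rarg had 6 annotated transcripts, of which 3 were above 0, and the main 2 begin at separate starts. Rarg-202, from the downstream start, was at 4.03 TPM in replicate 1 and 2.93 in replicate 2, or 67.9% and 55.8% of the gene. Rarg-201, from the upstream start, was at 1.46 and 2.03 TPM, or 24.7% and 38.6%. The counts were 220.63 and 161.24 for Rarg-202, with posterior SDs of 17.3 and 18.6, and 87.37 and 121.76 for Rarg-201, with posterior SDs of 18.7 and 19.9. Rarg-202 was the higher in both hearts. The 100 bases before each start are shown because the 2 starts are used side by side here and differ in base composition, at 79.0% G and C for the upstream and 60.0% for the downstream one. They were read from RefSeq promoter windows on GRCm38.p6 and are written 5′ to 3′ on the minus strand, without capitals. The upstream stretch is chr15:102257523-102257622, whose RefSeq start lies 5 nt from the first base of Rarg-201. The downstream stretch is chr15:102246501-102246600, next to the first base of Rarg-202.
Rarg upstream start: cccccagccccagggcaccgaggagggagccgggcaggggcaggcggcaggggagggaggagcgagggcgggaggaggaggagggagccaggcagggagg
Rarg downstream start: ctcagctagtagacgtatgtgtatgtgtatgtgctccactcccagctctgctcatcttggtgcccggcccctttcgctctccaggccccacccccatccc

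Rxra had 6 annotated transcripts and all of its reads were given to Rxra-201. Aldh1a1, Aldh1a2, Rarb and Crabp1 have 1 transcript each in the tables, so no split can be read for them. For Rarb this single entry, Rarb-201, begins at position 16575543, and other known forms of the gene were not measured apart from it.

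**Figure D3:**
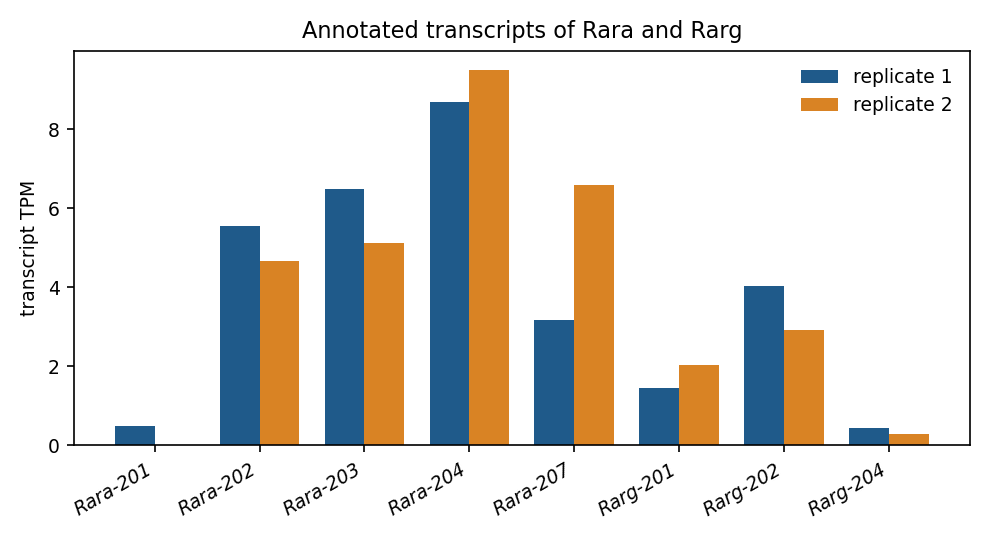
TPM (vertical) of the transcripts of Rara and Rarg that were above 0 in either library (horizontal), as bars for replicates 1 and 2. Rara-204 is the tallest in both hearts, Rara-207 is the transcript that differs most between them, and Rarg-202 stands above Rarg-201 in each.

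Rarb is also shown by sequence, because it is the member with the pattern that an RAR and RXR pair is known to bind. RefSeq promoter windows of 300 bases (GRCm38.p6) were searched on both strands for direct repeats of a core, either AGGTCA or GGGTCA or AGTTCA or GGTTCA, with spacers of 5, 2 or 1 bases. The table held 13 windows for 7 of the 9 genes, and Aldh1a3 and Crabp2 are not among them. With a spacer of 5 bases, 32 of 32851 windows in all (0.0974%) held a match, and among the 13 windows the match was in Rarb. It lies 53 to 37 bases before the RefSeq start, and the tables' transcript Rarb-201 begins 14 nt before it. No window of the 9 genes matched with a spacer of 2 or 1 bases, which 0.268% and 0.222% of all windows did. Among 72 windows of 52 other retinoid pathway genes, 1 matched with a spacer of 1 base, that of Bco1, a carotenoid cleaving enzyme, none with 2 bases and 1 with 5 bases, that of Cyp26a1, the retinoic acid degrading enzyme that is itself known to be induced by its substrate. The cores and spacer are in capitals. The Rarb stretch is chr14:16575507-16575535 on the minus strand, and the Cyp26a1 stretch is chr19:37697770-37697798 on the plus strand, with its repeat on the opposite strand. A match is a description of the letters and does not show that a receptor is bound.
Rarb: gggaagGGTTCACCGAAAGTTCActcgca
Cyp26a1: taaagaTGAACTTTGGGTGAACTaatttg

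The 2 genes with this pattern were far apart in level, with Rarb at 15.6 TPM in the mean and Cyp26a1 at 1.08 TPM in replicate 1 and 0.65 in replicate 2.

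Of the binding proteins, Crabp1 was the higher in both hearts and was the member with the largest between-heart ratio on scaled counts. Crabp1 (ENSMUSG00000032291.8; chr9:54764748-54773110, plus strand), a small cytosolic protein known to bind retinoic acid and to mark neural crest and some neurons in embryos, measured 5.44 TPM in replicate 1 and 10.75 in replicate 2. The mean was 8.10 ± 3.75 TPM (SD, n = 2), from 80 and 159 counts. The scaled ratio of replicate 2 to replicate 1 was 1.90-fold (1.45 to 2.53). The difference was beyond counting error. It lay inside the central 95% range of the 500 genes of nearest mean count, 0.684-fold to 2.06-fold.

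Crabp2 (ENSMUSG00000004885.5; chr3:87948666-87953376, plus strand), known to carry retinoic acid to the RARs, measured 1.26 TPM in replicate 1 and 1.89 in replicate 2. Its mean was 1.57 ± 0.445 TPM (SD, n = 2), from 19 and 33 counts, and the scaled ratio was 1.65-fold (0.922 to 3.11), an interval that includes no difference. In replicate 1 its counts were divided between Crabp2-201 (13.05) and Crabp2-202, which retains an intron (5.95), and in replicate 2 all 33 were on Crabp2-201. Crabp1 was at 4.32 times the level of Crabp2 in replicate 1 and 5.69 times in replicate 2, a geometric mean of 4.96-fold. The 2 genes summed to 6.70 and 12.6 TPM.

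Both were low beside another intracellular carrier. Fabp5, a fatty acid binding protein that can also take retinoic acid to another receptor, PPAR delta (Ppard, at 1.61 and 1.46 TPM), was at 447.94 and 480.52 TPM, a geometric mean of 60.7 times Crabp1.

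For the differences between the hearts, 6 of the 9 genes had a mean count of at least 100, and 1 of these 6, Crabp1, was at least 1.5-fold apart, with more in replicate 2. Over all 11958 genes with such counts, 1.92% were at least 1.5-fold apart in either direction and 1.31% were so with more in replicate 2. None of the 6 was 2-fold apart, which 0.426% of those 11958 genes were. Scaled by the spike-in RNAs, Crabp1 was 2.06-fold apart, so this count became 1. The median log2 ratio of the 6 was -0.01, the same as the -0.01 of all genes, and apart from Crabp1 no counted member exceeded an absolute log2 ratio of 0.18. None of the 9 lay outside the range of genes of like count. Aldh1a1, with a scaled ratio of 0.810-fold (0.593 to 1.10), and Aldh1a3 and Crabp2 were below that mean count. With the spike-in scaling the median log2 ratio of all genes shifted to 0.11, and the ratio of Rarb became 1.03-fold in place of 0.955-fold, so no direction is given for it.

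**Figure D4:**
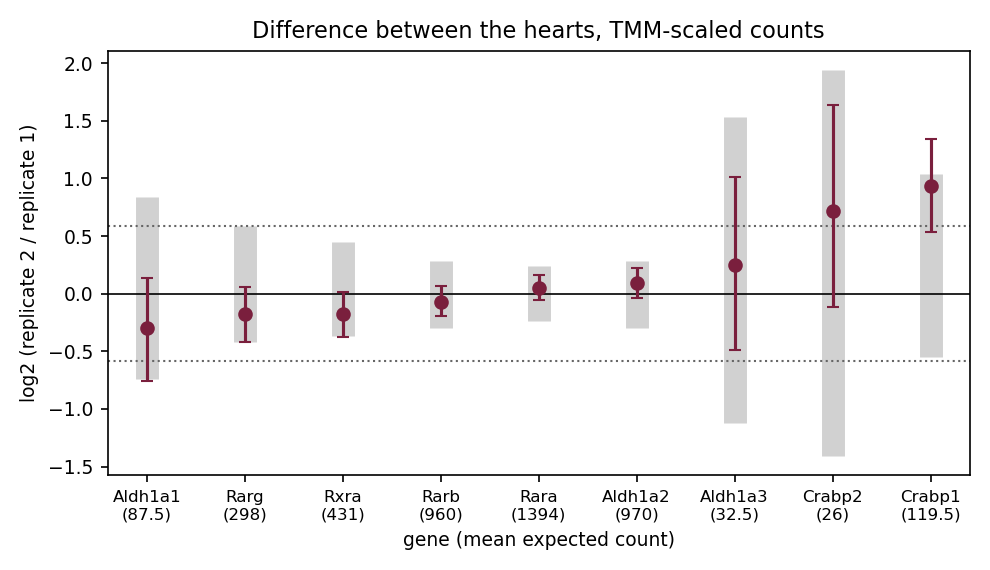
Log2 ratio of replicate 2 to replicate 1 on TMM-scaled counts (vertical) for each gene (horizontal, with its mean expected count), with bars for the exact 95% counting interval, grey bands for the central 95% range of 500 genes of like count and dotted lines at 1.5-fold. Crabp1 is the point at 0.93 whose interval lies wholly above 0, and every point lies within its grey band.

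The Crabp1 difference moved with other genes, whose values are given beside it. Of the 11958 genes averaging 100 counts or more, 5752 were higher in replicate 2 and 157 were at least 1.5-fold higher there. Of 9 marker genes of neurons and neural crest glia, 8 were higher in replicate 2, and 3 of the 5 with enough counts were at least 1.5-fold higher. Their summed level was 9.75 TPM in replicate 1 and 21.5 in replicate 2. Tubb3, a neuronal tubulin, was at 1.19 and 4.78 TPM, and Foxd3, a neural crest factor, was at 0 in replicate 1 and at 0.04 TPM in replicate 2. All 6 markers of the sinus venosus and sinus node were higher in replicate 2, 4 of them at least 1.5-fold, with sums of 29.2 and 59.4 TPM, among them Shox2, a sinus node transcription factor, at 2.58 and 8.80 TPM. The 6 lung and airway markers summed to 0.440 and 2.23 TPM, and 4 of them were at 0 in replicate 1. Epcam (0.07 and 1.32 TPM) and Cdh1 (0.37 and 0.64 TPM) held most of these sums. In replicate 2, Sftpc had 0 counts, Sftpb 1, Nkx2-1 3 and Sox2 8. Of 5 arterial smooth muscle markers, 2 were at least 1.5-fold higher in replicate 2, Myh11, a smooth muscle myosin, at 3.09-fold and Eln, which encodes elastin, at 1.61-fold. The others were Acta2 at 0.912-fold, Cnn1 at 1.05-fold and Tagln at 1.18-fold, and the 5 summed to 1375 and 1430 TPM. Red blood cell genes were lower in replicate 2, with sums of 60846 and 34535 TPM. Macrophage markers summed to 223 and 165 TPM, and 2 of those 6 were at least 1.5-fold lower in replicate 2, Spp1 at 0.170-fold and Gpnmb at 0.219-fold. Spp1, at 56.56 and 9.97 TPM, made up most of the drop in the sum. The others were C1qa at 1.10-fold, C1qb at 0.911-fold, Csf1r at 0.762-fold and Lyz2 at 0.921-fold. The marker lists were chosen with earlier results of these data known, so these counts are a description and not a test. The part of these cells in the Crabp1 difference was not tested.

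Aldh1a2 did not move in this way. The 11 epicardial markers summed to 205 TPM in replicate 1 and 234 in replicate 2, and 8 of the 11 were higher in replicate 2 on scaled counts. Upk3b, a mesothelial membrane gene, was the single one at least 1.5-fold apart, at 26.65 and 41.51 TPM. The log2 ratio of Aldh1a2 was 0.09 and the median over the epicardial markers was 0.11. Over the cushion and valve markers the median was 0.13, so this nearness is not particular to the epicardium. The counting interval of Aldh1a2 also includes no difference.

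**Figure D5:**
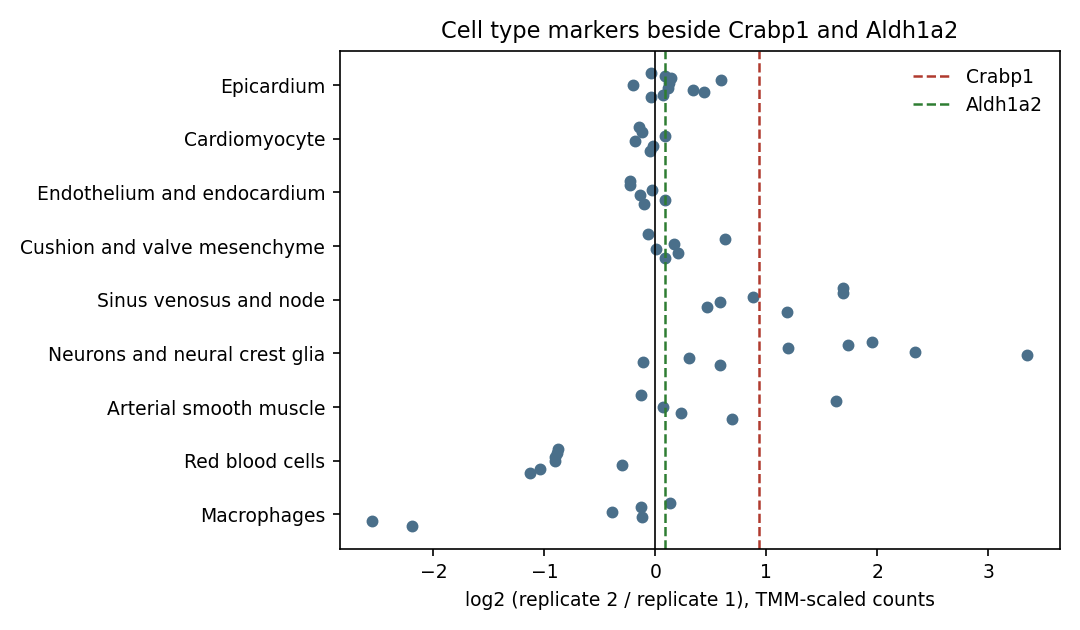
Log2 ratio of replicate 2 to replicate 1 on TMM-scaled counts (horizontal) of the marker genes of 9 cell types (rows, 1 point per gene with a mean count of at least 10), with dashed lines at Aldh1a2 and Crabp1. The line of Aldh1a2 (0.09) runs through the epicardial points and also meets points of cardiomyocyte, endothelial and cushion markers. The line of Crabp1 (0.93) lies among the points of the sinus venosus and node and of neurons and glia. It also runs between the arterial smooth muscle points of Eln (0.69) and Myh11 (1.63), with the other arterial points below it.

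Around the members, 70 further genes of the pathway were taken from fixed lists, and all of them matched a row. At least 1 TPM in both libraries was reached by 41 of the 70, near the 56.8% of all protein coding genes. That 56.8% is also the share to set beside the count of detected genes in each list below. Of the 36 with a mean count of at least 100, 1 was at least 1.5-fold apart, Adh1, with 2.81 TPM (78 counts) in replicate 1 and 5.12 TPM (142 counts) in replicate 2, a ratio of 1.74-fold (1.32 to 2.34). Over all genes with such counts, 1.92% were at least 1.5-fold apart. The median log2 ratio of the 36 was 0.04.

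Upstream of the Aldh1a enzymes, 9 of 14 genes for enzymes that convert retinol and retinaldehyde were detected. Adh5, an alcohol dehydrogenase better known for handling formaldehyde, was highest at 138.54 and 132.58 TPM. The retinol dehydrogenase Rdh14 was at 55.07 and 56.13 TPM, Dhrs4 at 31.61 and 24.16 TPM, and Rdh13 at 23.83 and 22.76 TPM. Dhrs3, which returns retinaldehyde to retinol, was at 25.60 and 28.15 TPM, close to Aldh1a2. Rdh10, the dehydrogenase known to be needed for embryonic retinaldehyde, was at 3.23 and 3.55 TPM, so that Dhrs3 RNA was 7.93 times that of Rdh10 in each library. Rdh1 and Sdr16c5 had 0 counts in both libraries. In replicate 1, 3 counts would be 0.0374 TPM for Rdh1 and 0.156 TPM for Sdr16c5. The deposited upper credibility bounds in that library were 0.0366 TPM for Rdh1 and 0.302 TPM for Sdr16c5.

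Downstream, none of the 3 degrading enzymes reached 1 TPM in both hearts. Cyp26a1 had 38 and 23 counts, Cyp26b1 was at 0.47 and 0.40 TPM from 45 and 39 counts, and Cyp26c1 had 0 counts in replicate 1 and 1 in replicate 2. Their summed level was 1.55 TPM in replicate 1 and 1.08 in replicate 2, against the 23.1 and 25.4 TPM of the Aldh1a genes. Of 12 genes for uptake, carriage and storage of retinol, 3 were detected. Among them were Dgat1, an acyltransferase that can also esterify retinol, at 33.12 and 33.04 TPM, and Rbp7, a retinol binding protein, at 5.97 and 6.67 TPM.

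Among the other partners that RXR proteins bind, 7 of 10 receptor genes were detected. The oxysterol receptor gene Nr1h2 was at 41.29 and 44.79 TPM and the thyroid hormone receptor gene Thra at 35.38 and 43.26 TPM, both above any RAR gene. Ppara, the fatty acid receptor gene, was at 6.81 and 8.11 TPM, and Nr4a1 at 4.61 and 5.10 TPM. All 9 corepressor and coactivator genes were detected, led by Ncor1, a corepressor of unliganded receptors, at 109.03 and 115.40 TPM. Med1, a Mediator subunit that nuclear receptors contact, was at 31.29 and 31.08 TPM, the histone acetyltransferase gene Crebbp at 20.75 and 20.30 TPM, the coactivator gene Ncoa2 at 16.70 and 15.93 TPM, and Nrip1, a ligand-dependent corepressor, at 14.02 and 15.42 TPM.

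Of 26 listed genes known to respond to retinoic acid in some tissue, 15 were detected. Among those of highest level were Tgm2, a transglutaminase, at 109.40 and 124.54 TPM, the homeobox gene Meis1 at 43.85 and 39.40 TPM, Rarres2, which encodes chemerin, at 27.78 and 32.76 TPM, and Dhrs3. All of the listed Hox genes were under 1 TPM in both libraries, and Stra8, a meiosis gene, had 0 counts in both. In replicate 1, 3 counts of Stra8 would be 0.126 TPM, and its deposited upper credibility bound was 0.484 TPM. None of the 13 with a mean count of at least 100 was at least 1.5-fold apart between the hearts, although Nr2f1, a nuclear receptor known from the atria, came near at 4.12 and 6.30 TPM, a log2 ratio of 0.58 that falls just short of that limit.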

How the data were processed

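Total RNA of 2 single E14.5 mouse hearts was measured. Per the file headers, the deposited gene and transcript tables give expected counts, TPM and FPKM made by the authors, with posterior estimates (scores) and isoform percent values beside them. The assembly was mm10 and the annotation M4, per the submitters' processing notes. What aligned and quantified the reads, and whether strand was used, is not given in the sources used here. The authors scaled TPM over all 69691 rows, spike-ins included.

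Symbols and gene positions were taken from GENCODE M21 (GRCm38), and 42462 of 43346 gene rows (98.0%) had a symbol. Expected counts were rounded to whole numbers and scaled by TMM (edgeR 4.0.16, R 4.3.3) with a prior count of 0.5; no count model was fitted. The steps were tested on data simulated with sampling noise alone, so that test does not cover the wider spread of the real libraries. Over the 16387 genes averaging 10 counts or more the median chi-square between the libraries was 1.83 per gene, above sampling noise, so they were counted as 2 samples. The labels name separate embryos.

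All 9 members are named. Of each pathway list, up to 5 genes of highest mean TPM of at least 1 are named, with any gene at least 1.5-fold apart and averaging 100 counts or more. Rdh10, Rxrg, Cyp26 genes and genes at 0 counts or near a limit were named after their values were seen. Members and lists were chosen with earlier results of these data known. Some list genes that the rule would name are not reported here. The alternatives were other units, scalings, prior counts and minimums, and leaving out each library.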

Additional observations from a re-analysis of the deposited data

How the results depend on the processing

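Depth limited Aldh1a3, Crabp2 and Aldh1a1, and 2 hearts give no test. No paired analysis was possible because there is only 1 group. With a mean count of at least 10, or with no minimum, 2 members were at least 1.5-fold apart (Crabp1 and Crabp2) in place of 1. By expected counts in place of TPM the shares were 89.0% for Aldh1a2, 52.5% for Rara, 36.2% for Rarb, 43.3% for Rxra and 52.7% for Rxrb (68.3% by TPM), since counts grow with length. With 1 heart left out in turn, the members detected numbered 8 to 9, other pathway genes 42 and neighbours apart 4 to 5. The shares then ran from 87.7% to 88.4% for Aldh1a2, 53.0% to 55.5% for Rara, 33.3% to 34.1% for Rarb, 23.7% to 27.4% for Rxra, 66.7% to 69.9% for Rxrb and 81.2% to 85.0% for Crabp1. Members detected numbered 7 on FPKM, 9 at a TPM of at least 0.5 and 6 at a TPM of at least 2. On counts per mean effective length, an alternative chosen after seeing the data, 3 neighbours were apart. The Crabp1 ratio ran from 1.85-fold to 2.06-fold over the scalings and prior counts, and that of Aldh1a3 reached 1.92-fold on deposited TPM. On posterior mean TPM, and in replicate 1 alone, Rarg stood above Crabp1.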

Other observations

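A few low-count genes of the lists were picked out after their values were seen. Stra6, the cell surface receptor for retinol carried in blood, had 2 counts in replicate 1 and 24 in replicate 2, a scaled ratio of 9.42-fold with an exact counting interval of 2.86 to 101, outside the range of genes of like count (0.271-fold to 5.44-fold). Its deposited credibility bounds overlap between the hearts, at 0.443 to 1.59 TPM and 0.894 to 2.28 TPM, and exclude the deposited levels of 0.03 and 0.43 TPM, so its level is uncertain. Epcam, an epithelial surface gene, had 3 counts in replicate 1 and 54 in replicate 2, also outside its range. Lrat, which stores retinol as its ester, had 5 and 20 counts, a ratio of 3.58-fold inside its range (0.264-fold to 5.13-fold), and Ttr, a blood carrier partner of retinol binding protein, had 9 and 22 counts, at 2.28-fold inside its range (0.359-fold to 5.34-fold). In the other direction Cyp26a1 had 38 and 23 counts and the retinol dehydrogenase gene Rdh12 had 19 and 9, both inside their ranges.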
